A study of Mus musculus with 10 samples.

Results

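The genes described here are 4 adult globin genes and 1 gene of erythroid haem synthesis, *Hba-a1*, *Hba-a2*, *Hbb-bs*, *Hbb-bt* and *Alas2*, out of 55536 genes counted in mouse bladder RNA. They were picked from measured values, because the library labelled PRELP-/- replicate 1 held many more of their counts than the other 9. The contrast between that library and the rest is therefore given as a description, with no test. Poly(A)-selected RNA of bladders from C57BL/6 mice was sequenced in 4 WT, 3 OMD-/- and 3 PRELP-/- libraries. OMD (osteomodulin) and PRELP are secreted proteoglycans of the extracellular matrix, and both knockouts are constitutive, with coding exons replaced by a β-galactosidase gene. The labels give neither age nor sex, and the mice received no treatment that they mention. The deposited records describe homogenised bladder tissue, whereas the study's text speaks of isolated bladder epithelia and gives other group sizes, so the groups here are those of the labels. In such a bulk sample, fewer cells of a type and less RNA per cell cannot be told apart.

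Haemoglobin carries oxygen in red cells as a tetramer of alpha and beta chains, each holding a haem group. Mature mouse red cells have no nucleus and make no new RNA, and the globin mRNA that reticulocytes and young red cells retain makes these transcripts a common measure of blood in a dissected tissue. *Alas2* encodes the erythroid form of 5-aminolevulinate synthase, the enzyme that starts haem synthesis, and is the form used by red cell precursors, while *Alas1* serves other cells.

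The alpha chains come from *Hba-a1* (ENSMUSG00000069919, chr11:32283511-32284465, + strand of GRCm38) and *Hba-a2* (ENSMUSG00000069917, chr11:32296489-32297298, + strand). The beta chains come from *Hbb-bs* (ENSMUSG00000052305, chr7:103826534-103828096, − strand) and *Hbb-bt* (ENSMUSG00000073940, chr7:103812524-103813996, − strand), neighbouring genes of the beta globin cluster. *Alas2* (ENSMUSG00000025270) is at chrX:150547375-150570638, + strand, where its span from start to end overlaps that of *Apex2* on the other strand. Whether their exons overlap was not tested. *Apex2* had 1254 counts over all libraries, beside 1231 of *Alas2*, at 4.12 to 5.45 CPM in 9 libraries and 7.27 CPM in PRELP-/- replicate 1, and the strand setting of the counting is not given in the sources used here. The 2 alpha genes differ at 1 of 429 coding bases and the 2 beta genes at 1 of 444, an identity of 99.8% in each pair. Of all stretches of 50 bases in the transcript of *Hba-a1*, 67.5% also occur in that of *Hba-a2*, and 58.3% of those of *Hbb-bt* occur in *Hbb-bs*. The split of counts between copies is therefore uncertain, and pair totals are given beside the single genes.

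The promoter stretches below are shown because all 5 genes stood high in one library together, and they let their shared and different letters be seen. Each is the 130 bases before the start site in the RefSeq table of GRCm38.p6, read along the gene's strand, and all 5 genes were matched there. Capitals mark 4 motifs in either orientation. CACCC is the core of elements bound by Krüppel-like factors, and CCAAT that of elements bound by CCAAT-binding factors. ATATAA is a TATA box, and GATAA is the core of sites of GATA factors. The *Hba-a1* window matches that of *Hba-a2* letter for letter over 297 of 300 bases, so 1 alpha promoter is printed. Some GENCODE isoforms start upstream of the RefSeq start, within or before these stretches.
Hba-a2, chr11:32296362-32296491, + strand: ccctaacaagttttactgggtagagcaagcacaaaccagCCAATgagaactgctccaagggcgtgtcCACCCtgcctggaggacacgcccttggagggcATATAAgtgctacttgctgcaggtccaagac
Hbb-bs, chr7:103827929-103828058, − strand: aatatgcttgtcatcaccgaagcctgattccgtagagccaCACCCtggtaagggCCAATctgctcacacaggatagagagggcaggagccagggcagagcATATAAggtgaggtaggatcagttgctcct
Hbb-bt, chr7:103813924-103814053, − strand: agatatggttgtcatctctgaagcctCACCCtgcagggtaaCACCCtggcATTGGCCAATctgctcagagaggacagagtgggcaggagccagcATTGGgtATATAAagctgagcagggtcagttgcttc
Alas2, chrX:150547287-150547416, + strand: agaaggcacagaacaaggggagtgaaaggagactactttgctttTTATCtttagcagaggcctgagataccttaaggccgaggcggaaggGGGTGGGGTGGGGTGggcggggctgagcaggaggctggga

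CACCC was present in the 130 bases of 5 of the 5 genes, against 33.7% of 32851 mouse promoters over the same length. CCAAT was present in 4 of 5, the 4 globin genes, against 22.4%. ATATAA was present in the same 4 globin genes, against 4.75%. *Alas2* held neither, and was the single gene of the 5 with GATAA in the 130 bases, against 11.4% of promoters. Over the full 250 bases of the table, GATAA was found in 5 of 5, against 22.6%. The copies share most of their letters, so these counts are not 5 independent observations, and a match of letters shows no binding.

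Total counts per library lay between 20391437 and 25905707, apart from 46269079 in WT replicate 1. *Omd* had 0 to 12 counts in WT and 0 in each OMD-/- library, which is too low to check that knockout, whereas *Prelp* had 46 to 74 counts in PRELP-/- and 4848 to 15890 in WT. Some libraries of a group were close to each other. PRELP-/- replicates 2 and 3 differed by a mean chi-square of 3.80 per gene and OMD-/- replicates 2 and 3 by 3.23, more than counting noise but far less than the 258 to 263 between either of the former and PRELP-/- replicate 1. WT replicates 1 and 2 (12.6) and 3 and 4 (9.14) also formed pairs, while other WT pairs were at 31.8 to 54.5. The 4 Y chromosome genes followed these pairs in WT, with summed levels of 188 and 163 CPM in replicates 1 and 2 and near 0 in replicates 3 and 4. The summed Y level was 120 CPM in PRELP-/- replicate 1 and 18.5 to 18.7 CPM in replicates 2 and 3. In OMD-/- it was 18.1 CPM in replicate 1 and 0.805 and 0.73 CPM in replicates 2 and 3. The labels do not say whether close libraries share an animal, so p-values measure the spread between these libraries, which may be technical in part. All 16 urothelial marker genes were detected, with a summed level of 16220 to 24830 CPM in 9 libraries and 33060 CPM in PRELP-/- replicate 1.

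The 5 genes together took a small share of each library, with one exception. They held 1775, 899, 1263 and 1366 counts in WT, 1267, 984 and 1110 in OMD-/-, and 8335, 1737 and 1373 in PRELP-/- replicates 1, 2 and 3. As a share of all counts this was 0.00384% to 0.00670% in 9 libraries. In PRELP-/- replicate 1 it was 0.0386% (exact 95% interval 0.0378% to 0.0394%, which covers counting error only). On the CPM scale, which sets counts against library size after TMM scaling, the sum was 473 CPM in that library, 8.46 times the median of the other 9 and 6.80 times the highest. Across the other 9 libraries the sum varied by 1.97 times from lowest to highest.

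Among the members, levels can be compared only per kilobase of exon. *Hbb-bs* was the highest of the 5 in 10 of 10 libraries and *Alas2* the lowest in 10 of 10. Per kilobase, the WT means were 40.9 CPM for *Hbb-bs*, 8.92 for *Hbb-bt*, 5.56 for *Hba-a1*, 4.34 for *Hba-a2* and 1.11 for *Alas2*. *Hbb-bt* exceeded *Hba-a1* in 5 of 10 libraries, so these neighbours had no fixed order. *Hba-a1* exceeded *Hba-a2* in 8 of 10.

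**Figure D1:**
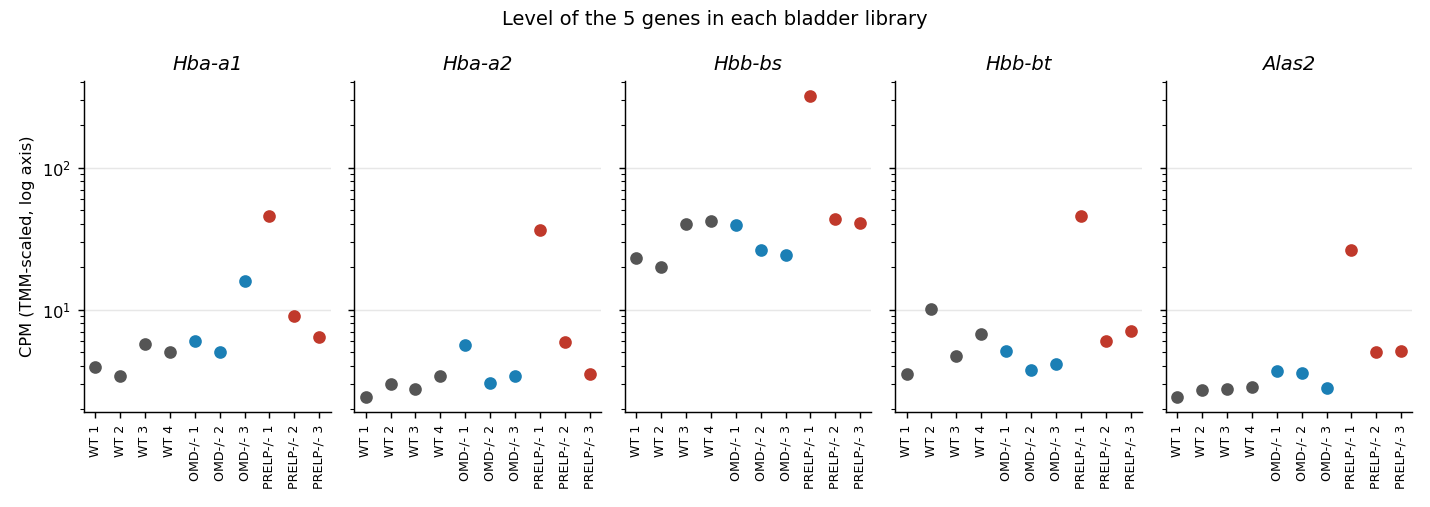
TMM-scaled CPM on a log axis for each of the 5 genes in each of the 10 libraries (1 point a library, WT grey, OMD-/- blue, PRELP-/- red). PRELP-/- replicate 1 is the highest point in each of the 5 panels, at 26.2 to 320 CPM.

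*Hba-a1* encodes the first of the adult alpha chains. It had 198, 78, 129 and 113 counts in WT replicates 1 to 4 (3.95, 3.40, 5.71 and 4.999 CPM), 128, 119 and 348 in OMD-/- (6.03, 5.04 and 15.9 CPM), and 801, 226 and 140 in PRELP-/- (45.5, 9.05 and 6.43 CPM). OMD-/- replicate 3 stood well above its own group, and PRELP-/- replicates 2 and 3 were above the highest WT library. *Hba-a2*, its copy, had 121, 69, 62 and 77 counts in WT (2.41, 3.01, 2.74 and 3.41 CPM), 120, 72 and 75 in OMD-/- (5.65, 3.05 and 3.42 CPM), and 636, 147 and 76 in PRELP-/- (36.1, 5.89 and 3.49 CPM). Here OMD-/- replicate 1 and PRELP-/- replicate 2 were the higher libraries outside PRELP-/- replicate 1, and OMD-/- replicate 3 did not stand out.

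*Hbb-bs*, the major beta chain gene of these libraries, had 1159, 459, 903 and 959 counts in WT (23.1, 20.03, 39.96 and 42.4 CPM), 832, 621 and 535 in OMD-/- (39.2, 26.3 and 24.4 CPM), and 5632, 1089 and 891 in PRELP-/- (320, 43.6 and 40.9 CPM). WT was split by its close pairs, with replicates 1 and 2 low and 3 and 4 high, and the range of OMD-/- lay inside that of WT. *Hbb-bt*, the second beta chain gene, had 176, 231, 107 and 153 counts in WT (3.51, 10.1, 4.74 and 6.77 CPM), 109, 88 and 91 in OMD-/- (5.13, 3.73 and 4.15 CPM), and 804, 150 and 154 in PRELP-/- (45.6, 6.01 and 7.07 CPM). WT replicate 2 was the highest of the 9 libraries for *Hbb-bt* and the lowest for *Hbb-bs*.

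*Alas2* had 121, 62, 62 and 64 counts in WT (2.41, 2.71, 2.74 and 2.83 CPM), 78, 84 and 61 in OMD-/- (3.67, 3.56 and 2.78 CPM), and 462, 125 and 112 in PRELP-/- (26.2, 5.01 and 5.14 CPM). WT was tight, at 2.67 ± 0.182 CPM (SD, n = 4), and OMD-/- reached into its range through replicate 3. PRELP-/- replicates 2 and 3 were nearly equal and lay above each WT and OMD-/- library.

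The question put to PRELP-/- replicate 1 was how far the genes stood out and whether they did so alike. Its CPM was 7.96 times the median of the other 9 for *Hba-a1*, 10.6 times for *Hba-a2*, 8.16 times for *Hbb-bs*, 8.89 times for *Hbb-bt* and 9.26 times for *Alas2*. Against the highest of the other 9 the ratios were 2.86, 6.13, 7.33, 4.53 and 5.10 in the same order. The low ratio of *Hba-a1* was set by OMD-/- replicate 3 and that of *Hbb-bt* by WT replicate 2. All 5 members were above each of the other 9 libraries, as were 32.3% of 16912 genes tested. For 4 of the 5 the level was at least 4 times the highest of the others, which held for 0.0591% of the tested genes, the 4 members included. These genes were chosen for this difference, and the shares are printed only as its background.

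That library also differed from the rest along gene length. Among 1347 tested genes with under 1 kb of exons, its median log2 CPM was 0.82 above the median of the other 9, and among 8303 genes of 4 kb or more it was 0.34 below (a median difference of -0.34). In each of the other 9 libraries the corresponding medians stayed within -0.14 and 0.10. The log2 differences of the members were 2.98 for *Hba-a1*, 3.38 for *Hba-a2*, 3.03 for *Hbb-bs* and 3.13 for *Hbb-bt*, whose exons sum to under 1 kb, and 3.18 for *Alas2*, with 2.40 kb. Within their own length classes, 0.149% to 0.371% of genes were at or above a globin member, and 0.0396% at or above *Alas2*, the members included. These shares too rest on the values that chose the genes, and are background only. Its TMM factor was 0.816, against 0.938 to 1.11 in the others.

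**Figure D2:**
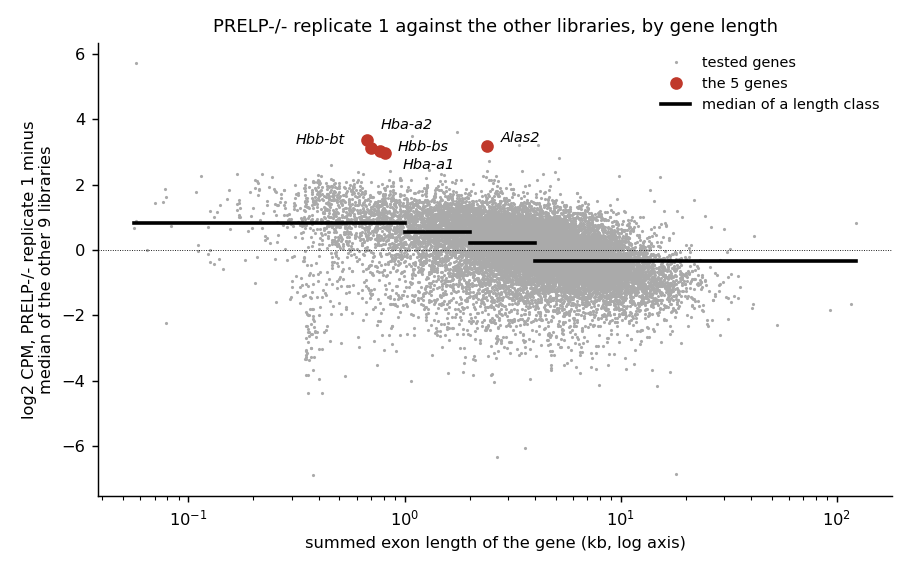
Log2 CPM of PRELP-/- replicate 1 minus the median of the other 9 libraries (vertical) against summed exon length in kb (horizontal, log axis) for 16912 tested genes (grey), with the 5 genes in red and the median of each length class as a black line. Class medians run from 0.82 for the shortest genes to -0.34 for the longest, while the 5 genes lie between 2.98 and 3.38.

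The proportions among the 5 genes in PRELP-/- replicate 1 were near those of most other libraries. *Hba-a1* made up 55.7% of the alpha counts there (exact 95% interval 53.1% to 58.3%) and 51.6% to 67.5% in 8 of the other libraries. *Hbb-bs* made up 87.5% of the beta counts (86.7% to 88.3%), and 85.3% to 89.4% in 8 of the others. The alpha genes gave 18.2% of globin counts (17.4% to 19.1%), and *Alas2* gave 5.54% of the counts of the 5 genes (5.06% to 6.06%). Both lay inside the spread of the other 9 libraries, 14.6% to 40.3% and 4.68% to 8.54%.

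A single library broke each pattern within a pair. In OMD-/- replicate 3 *Hba-a1* took 82.3% of the alpha counts (78.3% to 85.8%), and the alpha genes 40.3% of the globin counts (37.3% to 43.4%), against 14.6% to 23.1% elsewhere. In WT replicate 2 *Hbb-bs* took 66.5% of the beta counts (62.9% to 70.0%). These intervals lie apart from those of each other library. Each is the close partner of a library without the shift, since OMD-/- replicate 2 had 62.3% and WT replicate 1 had 86.8%. The part that reads shared between copies have in these shifts was not tested.

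**Figure D3:**
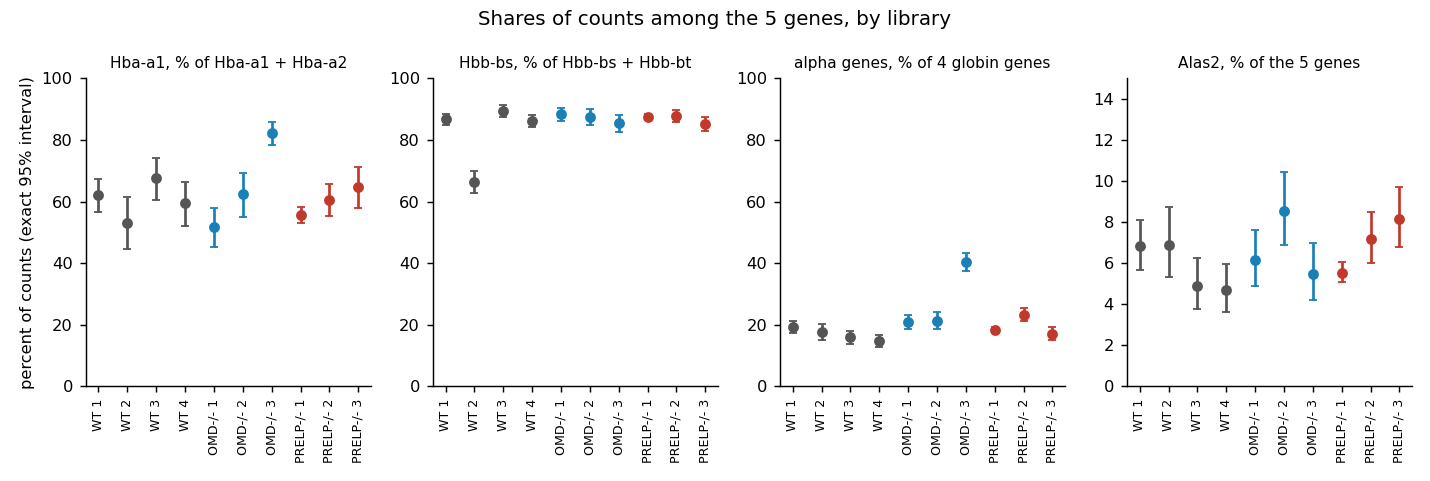
Share of counts in percent with exact 95% intervals in each library, for Hba-a1 among the alpha genes, Hbb-bs among the beta genes, the alpha genes among all 4 globin genes, and Alas2 among the 5 genes (the last axis ends at 15%). OMD-/- replicate 3 stands apart at 82.3% and 40.3%, and WT replicate 2 at 66.5%.

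Next, the genotypes were compared without PRELP-/- replicate 1, which had chosen the genes. In OMD-/- against WT no member passed the quasi-likelihood test of edgeR at an adjusted p of 0.05 (Benjamini-Hochberg, over all genes tested), whereas 29.4% of 16647 genes passed. Of the 5, 1 had an unadjusted p under 0.05 in edgeR, and the share of all genes at that threshold is not given. DESeq2 called 1, beside 5240 of 19701 genes, and limma-voom 0, beside 7212 of 16647. The groups overlapped for all 5 members, whereas 38.9% of genes had no overlap. *Hba-a1* was 8.99 ± 6.00 CPM in OMD-/- (SD, n = 3) and 4.51 ± 1.04 CPM in WT (SD, n = 4), a log2 fold change of 0.998 ± 0.379 (SE, edgeR adjusted p = 0.0751). Without OMD-/- replicate 3 this value was 0.29. The log2 fold changes of the other members were 0.48 for *Hba-a2*, -0.07 for *Hbb-bs*, -0.52 for *Hbb-bt* and 0.32 for *Alas2*, with edgeR adjusted p of 0.171 to 0.888. Leaving out OMD-/- replicate 1 took *Hba-a2* to 0.18, and leaving out WT replicate 2 took *Hbb-bt* to -0.20. When each pair was counted as 1 gene, the alpha total was higher in OMD-/- by 0.82 on the log2 scale (edgeR adjusted p = 0.0403). The beta total differed by -0.14 (adjusted p = 0.708). In that fit 4902 of 16647 genes passed. OMD-/- replicate 3 held 423 alpha counts, against 248 and 191 in replicates 1 and 2. Leaving it out was not tested for the totals.

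PRELP-/- replicates 2 and 3 had more *Alas2* and *Hba-a1* RNA than WT, so 2 of 5 members passed, against 22.2% of 17120 genes. *Alas2* was 5.07 CPM on average against 2.67 ± 0.182 CPM in WT (SD, n = 4), a log2 fold change of 0.94 ± 0.18 (SE, edgeR adjusted p = 0.00805). *Hba-a1* was 7.74 against 4.51 ± 1.04 CPM, a log2 fold change of 0.79 ± 0.24 (SE, edgeR adjusted p = 0.0474). *Hba-a2* had 0.72 ± 0.26 (adjusted p = 0.0774), *Hbb-bs* 0.44 ± 0.29 (adjusted p = 0.312) and *Hbb-bt* 0.08 ± 0.37 (adjusted p = 0.895), none of which passed in edgeR. With copies counted as 1 gene, the alpha total passed at 0.76 (edgeR adjusted p = 0.0317), in a fit where 3808 of 17120 genes passed. The beta total, at 0.39, did not (adjusted p = 0.276). *Hba-a1*, *Hba-a2* and *Alas2* did not overlap with WT, and neither did 48.4% of all tested genes. With PRELP-/- replicate 2 or 3 left out, *Alas2* had a log2 fold change of 0.96 or 0.93. Each of those fits left 1 PRELP-/- library, so no call is given. The alpha genes rested more on 1 library, with *Hba-a1* at 0.53 without replicate 2 and 1.03 without replicate 3, and *Hba-a2* at 0.29 and 1.05. When the close libraries were summed into 1 sample each, *Alas2* had 0.98 and *Hba-a1* 0.83, again with 1 PRELP-/- sample and no call. With PRELP-/- replicate 1 put back, the log2 fold changes were 1.61 to 2.35 for the 5 members, given here with no test.

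The knockouts were also set against each other, with OMD-/- as the reference. The edgeR test passed 0 of 5 members and 0.0986% of 16228 genes. Of the 5, 3 had an unadjusted p under 0.05, a share that is not given for all genes. DESeq2 called 0, beside 168 of 18046 genes, and limma-voom 3, beside 9.45% of all genes. The log2 differences were 0.60 ± 0.20 for *Alas2*, 0.59 ± 0.19 for *Hbb-bt* and 0.50 ± 0.19 for *Hbb-bs* (SE), with edgeR adjusted p of 0.452, 0.451 and 0.522. These 3 genes did not overlap between the groups, nor did 25.3% of tested genes. *Hba-a2* differed by 0.22 ± 0.31 and *Hba-a1* by -0.21 ± 0.59. The alpha total differed by -0.0618 and the beta total by 0.51 (edgeR adjusted p = 0.983 and 0.477). With the Y chromosome genes as a covariate the value was 0.11 for *Hbb-bs* and 0.35 for *Hbb-bt*. Same-numbered OMD-/- and PRELP-/- libraries had weakly correlated deviations, and with the replicate number as a block 3 members and 16.9% of all genes passed, at 0.73 for *Hbb-bs* (edgeR adjusted p = 1.58e-14), 0.72 for *Hbb-bt* (adjusted p = 0.00135) and 0.67 for *Alas2* (adjusted p = 0.0112). That fit compares the closely alike replicates 2 and 3 of each group, since OMD-/- replicate 1 has no partner. Leaving OMD-/- replicate 1 out without a block also gave 3 members, and 19.9% of all genes. With the close libraries summed, the log2 differences were 0.57 for *Alas2*, 0.54 for *Hbb-bt* and 0.41 for *Hbb-bs*. They were 0.13 for *Hba-a2* and -0.06 for *Hba-a1*. That fit left 1 PRELP-/- sample, so no call is given.

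**Figure D4:**
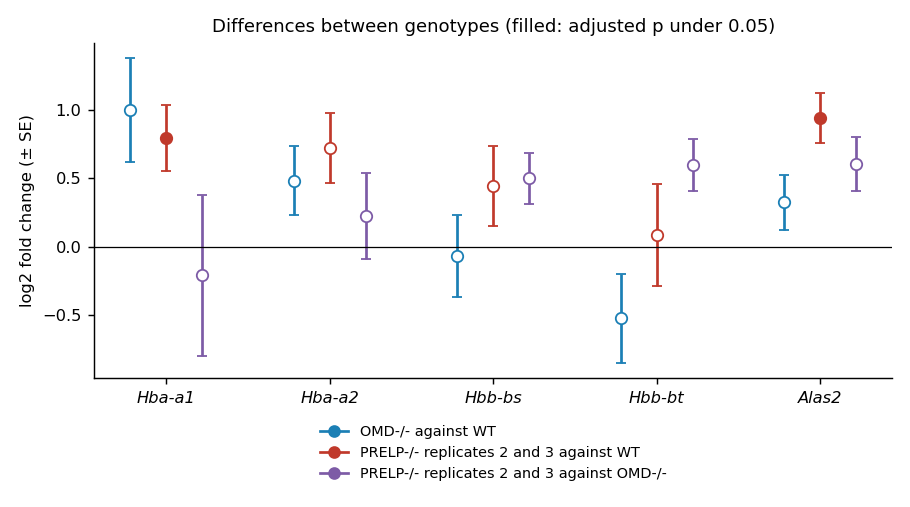
Log2 fold change with its SE for each of the 5 genes in the 3 comparisons made without PRELP-/- replicate 1, from edgeR. Filled points, Hba-a1 at 0.79 and Alas2 at 0.94 in PRELP-/- against WT, passed an adjusted p of 0.05.

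Other genes of red cells and of haem were read from fixed lists. Of 16647 genes tested in OMD-/- against WT, 2377 rose and 2522 fell. In PRELP-/- 1835 rose and 1972 fell of 17120, and the list counts stand beside these. Among the other globin genes of the list, *Hba-x*, *Hbb-y*, *Hbb-bh0*, *Hbb-bh1*, *Hbb-bh2* and *Hbb-bh3* had 0 counts in each library. The limit that a 0 allows is 3 counts. Of the globins of other tissues, *Mb*, myoglobin, was at 0.137 CPM or lower in all 10 libraries, and *Ngb*, neuroglobin, was at 2.67 to 5.42 CPM in the 9 libraries and 10.2 CPM in PRELP-/- replicate 1. *Cygb*, the cytoglobin of fibroblasts, was higher than in WT in both knockouts, with log2 fold changes of 0.85 for OMD-/- and 0.72 for PRELP-/- (edgeR adjusted p = 0.00320 and 0.0205).

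Of 18 red cell membrane genes, 12 were tested in OMD-/- and 13 in PRELP-/- against WT. *Gypc*, glycophorin C, rose in both, by 1.05 and 0.99, as did *Add2*, beta adducin, by 0.94 and 0.86 on the log2 scale. In PRELP-/- *Sptb*, erythroid beta spectrin, fell by 1.04 and *Ank1*, ankyrin of the red cell membrane, fell by 3.47 (edgeR adjusted p = 0.0321 and 0.0414). The list's medians were -0.03 in both comparisons, beside -0.00 and -0.01 over all tested genes. *Slc4a1*, the band 3 anion exchanger and a defining gene of the list, was near its floor, at 0.0598 to 0.349 CPM in the 9 libraries and 1.48 CPM in PRELP-/- replicate 1. *Rhag*, the Rh-associated glycoprotein, had no count in that library. Of the 13 genes of the list tested over all 10 libraries, 1 was highest and 8 were lowest in PRELP-/- replicate 1. Their median log2 difference to the other 9 was -0.83. Over all 16912 tested genes, 5463 were highest and 4852 lowest in that library. *Ank1* differed by -2.66 there and *Epb41*, protein 4.1 of the membrane skeleton, by -1.10, both with exons of over 4 kb.

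Among 22 genes of red cell cytosol and maturation, 17 were tested in OMD-/- and 18 in PRELP-/-. In the former 2 rose and 2 fell, and in the latter 2 rose and 1 fell. Over all tested genes, 29.4% and 22.2% passed in either direction. *Slc25a37*, mitoferrin, which brings iron into mitochondria, fell by 1.58 in OMD-/- and by 1.46 in PRELP-/- on the log2 scale (edgeR adjusted p = 1.06e-06 and 7.18e-05). *Cat*, catalase, rose by 0.35 and 0.40. *Prdx2*, a peroxidase abundant in red cells, was at 137 to 194 CPM in the 9 libraries and 331 CPM in PRELP-/- replicate 1. Of the 18 genes of this list tested over all 10 libraries, 10 were highest in PRELP-/- replicate 1, where 32.3% of all tested genes were.

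The defining transcription factors of red cell precursors were at low levels. *Gata1* was at 0 to 0.0913 CPM in the 9 libraries and 0.170 CPM in PRELP-/- replicate 1, which is its floor of 3 counts. *Klf1* was at 0.0400 to 0.917 CPM and 0.795 CPM, with WT replicate 1 the highest. *Nfe2*, also used by megakaryocytes, was at 0.0942 to 0.339 CPM and 0.965 CPM. Of 6 tested in OMD-/- against WT, *Bcl11a*, a repressor of embryonic globins that lymphocytes also express, rose by 1.70 and *Cbfa2t3* by 0.81, and *Ldb1* fell by 0.40. Of 7 tested in PRELP-/-, *Bcl11a* rose by 1.04 and *Ldb1* fell by 0.38.

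All 17 genes of haem synthesis were tested. In OMD-/- 3 rose and 4 fell, and in PRELP-/- 1 rose and 3 fell, with medians of -0.03 and 0.00. Among all tested genes, 29.4% and 22.2% passed in either direction. *Ppox*, protoporphyrinogen oxidase, fell by 1.65 and 1.64 (edgeR adjusted p = 1.03e-06 and 2.65e-05), and *Uros*, uroporphyrinogen III synthase, fell by 0.56 and 0.65. *Urod*, the next enzyme, rose by 0.30 and 0.43. *Alas1*, the form of other cells, rose by 0.29 in OMD-/- (adjusted p = 0.0263). It was at 52.4 to 75.2 CPM over the 9 libraries and 55.2 CPM in PRELP-/- replicate 1, so it did not share the high level of *Alas2* there. *Glrx5*, of iron-sulphur cluster assembly, was the gene of this list with the highest ratio in that library, at 94.6 CPM against 34.1 to 48.4 CPM.

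Of 15 genes that clear haem and haemoglobin, 3 rose and 1 fell in OMD-/-, and 6 rose and 1 fell in PRELP-/-. Passing in either direction were 29.4% and 22.2% of all tested genes. *Fth1*, ferritin heavy chain, rose by 0.59 and 0.62, *Cd163*, the haemoglobin scavenger receptor of macrophages, by 0.61 and 0.51, and *Slc40a1*, the iron exporter ferroportin, by 0.28 and 0.69 (log2 fold changes). *Ftl1*, ferritin light chain, and *Slc48a1*, a haem transporter, passed in PRELP-/-, rising by 0.29 and 0.41. *Hpx*, haemopexin, was at 0.611 to 1.10 CPM in WT and at 0.120 CPM or lower in the knockout libraries. *Hmox1*, haem oxygenase 1, was at 30.4 to 39.3 CPM in the 9 libraries and 43.7 CPM in PRELP-/- replicate 1, and it did not pass in the 3 comparisons. In the comparison of the knockouts with each other, 0 of 67 red cell and haem genes passed in edgeR, against 0.0986% of all tested genes. An unadjusted p under 0.05 was found for 6 of the 67, with no such share given for all genes.

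Markers of other blood cells were read beside the members. Platelet markers summed to 13.3 to 18.2 CPM in the 9 libraries and 23.6 CPM in PRELP-/- replicate 1. *Ppbp* and *Pf4*, chemokines stored in platelets, were 2.61 CPM against 0 to 0.505 CPM and 13.9 CPM against 3.33 to 7.58 CPM, while *Gp1ba* and *Gp1bb* had no count there. Neutrophil markers summed to 6.73 to 14.1 CPM and 28.3 CPM, of which *Il1r2* gave 24.2 CPM. The defining *S100a8* and *S100a9* were at 0.170 and 0.738 CPM there, and *Ly6g* and *Elane* had 0 counts in all 10 libraries. Lymphocyte markers went the other way, at 54.0 CPM in PRELP-/- replicate 1 against 112 to 2300 CPM. Endothelial markers summed to 405 to 1063 CPM in the 9 libraries and 690 CPM in that one. Over all 16912 tested genes, 5463 were highest and 4852 lowest in that library. Of the tissue lists, 11 of 16 urothelial genes were highest there and 5 lowest. For fibroblasts, 1 of 10 genes was highest and 5 lowest. The part of these cell types in the levels of the members was not tested.

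In the comparisons without PRELP-/- replicate 1, markers of other tissues moved beside the members. As background, 29.4% of all tested genes passed in OMD-/- and 22.2% in PRELP-/- against WT, in either direction. Of 19 lymphocyte genes, 14 rose in OMD-/- and 4 in PRELP-/- against WT, and of 10 fibroblast genes 6 rose in each, with none falling in either list. Of 11 monocyte and macrophage genes tested, 8 rose in OMD-/-, and 4 rose and 1 fell in PRELP-/-. Of 16 urothelial genes, 4 rose in OMD-/- and 7 in PRELP-/-. Of 14 endothelial genes, 3 rose and 1 fell in OMD-/-, and 1 fell in PRELP-/-. The endothelial sum was 405 and 423 CPM in WT replicates 4 and 3 and 798 and 836 CPM in replicates 1 and 2. That was the opposite order to *Hbb-bs*. Smooth muscle genes summed to 558.9 and 539.5 CPM in WT replicates 1 and 2 and 1735 and 1580 CPM in replicates 3 and 4. Lymphocyte genes summed to 112 and 116.7 CPM in the former pair and 192.5 and 159.3 CPM in the latter. In both lists replicates 3 and 4 were the higher pair, as for *Hbb-bs*. Of 10 smooth muscle genes 0 passed against WT, with medians of -0.31 in OMD-/- and -1.55 in PRELP-/-. The part of these tissues in the *Alas2* and *Hba-a1* differences was not tested.

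Genes with a pattern most like the members were ranked by Pearson's r with the mean log2 CPM of the 5, among 14470 genes of at least 1 CPM. Over 10 libraries the closest 12 were *Commd10* (r = 0.994), *H2afv*, *Rpl8*, *Adipor1*, *Zfp622*, *H2-T23*, *Gm4149*, *Cmbl*, *Clp1*, *Rplp0*, *S100a16* and *Maf1* (r = 0.987), and PRELP-/- replicate 1 is the point that sets these values. Over the 9 libraries without it they were *Slc44a4* (r = 0.957), *Stradb*, *Def8*, *Eif6*, *Tmem30b*, *Mfsd10*, *Pgls*, *H2afv*, *Commd10*, *Cd209a*, *Rbck1* and *Slc29a1* (r = 0.922), so 2 genes were shared. Neither set holds another gene of the red cell lists. Between pairs of members r was 0.685 to 0.957 over the 10 libraries and -0.27 to 0.68 over the 9. The lowest was *Hba-a1* with *Hbb-bt*. Much of the likeness of the members to each other therefore rests on that library. Without it, *Hba-a2*, *Hbb-bs* and *Alas2* still had r of 0.56 to 0.68 with each other.

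The genes outside the 5 with the highest ratio of PRELP-/- replicate 1 to the highest other library, among 11062 with at least 100 counts in it, were of other kinds. *C1rb*, a complement protease gene, had 6.30 CPM against at most 0.466 CPM (13.5 times) and *Krt14*, a basal keratin, 6.53 against 0.961 CPM (6.79 times). The other 8 were *Gm24270*, *Bc1*, *Gm5805*, *Gm11361*, *Rps14*, *Gm6204*, *Gm9843* and *Gm48583*, with exons summing to 0.607 kb or less except for *Rps14*. Their ratios were 3.39 to 10.9. *Hbb-bs* would stand behind 2 genes in this ranking, *Hba-a2*, *Hbb-bt* and *Alas2* behind 3 each, and *Hba-a1* behind 54.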

How the data were processed

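The authors sequenced poly(A)-selected, strand-specific libraries, each labelled as bladder tissue, and deposited whole-number read counts for 55536 genes per library, with no normalization. The file headers name HISAT2, whereas the submitters' processing notes name STAR 2.5.2b, with featureCounts. Strand and multimapping settings and use of the molecular identifiers in the adaptors are not given in the sources used here. The authors' DESeq2 comparison tables (fold changes, p-values) were not used. All 55536 identifiers matched GENCODE vM21 (GRCm38), which gave symbols, coordinates and summed exon lengths.

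The members and gene lists were chosen with earlier results of these data known. Named genes were the members, the targeted genes, list genes that passed or were highest, 12 genes most like the members and 10 with the highest ratio in PRELP-/- replicate 1, the list genes being further narrowed for length after their values were seen. R 4.3.3 with edgeR 4.0.16 (TMM, filterByExpr, robust quasi-likelihood test, Benjamini-Hochberg threshold 0.05, two-sided, SE derived from the fold change and its p), limma 3.58.1 and DESeq2 1.42.0 were used, and the fit was tested on simulated data. Each fit held the 2 groups compared. PRELP-/- replicate 1 was kept out of the groups tested because it had chosen the genes. CPM used TMM factors over all 10 libraries, and log2 CPM a prior count of 2. Intervals are exact (Clopper-Pearson) and, like the floor of 3 counts, cover counting error only, as amplified reads are not independent molecules. Whether replicate numbers pair libraries was checked by the correlation of their deviations from the group mean. For OMD-/- and PRELP-/- r was 0.303, 0.181 and 0.148, a hint of pairing from the data that is not in the labels. Of the PRELP-/- libraries, 2 of 3 correlated best with their own number, and r was up to 0.197 between unequal numbers. The main fits held no pairing, and the replicate block was run as an alternative in each comparison. PRELP-/- replicate 1, which entered this check, is in no group tested. Alternatives were other scaling, no filter, DESeq2, limma-voom with quality weights, a replicate block, 1 fit over all libraries, a Y chromosome covariate, summed copies and each library left out. Summing close libraries was added after seeing the data. Some genes of the lists are counted in them but not reported here by name.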

Additional observations from a re-analysis of the deposited data

Results flagged for a closer look

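All 5 members were above each of the other 9 libraries in PRELP-/- replicate 1, the library kept out of the tests. The ratio of its CPM to the highest other library was 2.86 for *Hba-a1*, 6.13 for *Hba-a2*, 7.33 for *Hbb-bs*, 4.53 for *Hbb-bt* and 5.10 for *Alas2*. The genes were chosen for this, and it is listed as a value.

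In WT replicate 2, *Hbb-bs* took 66.5% of the beta counts, and its gap to the nearest of the other 3 WT libraries was 0.862 of the whole range, past Dixon's critical value for 4 samples. This was 1 of 9 quantities searched in WT, and chance flags about 1 in 20. Groups of 3, such as OMD-/- with its 82.3% of alpha counts on *Hba-a1* in replicate 3, were not searched.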

How the results depend on the processing

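In OMD-/- against WT the count of members that passed moved from 0 to 1 with DESeq2 and with the replicate block. In both cases it was *Hba-a1*. Of all genes, 5240 of 19701 passed with DESeq2 and 3516 of 16647 with the block, against 4899 of 16647 in the main fit. The count was 2 with copies summed, where both alpha genes stand for the same total and 4902 of 16647 genes passed. Leaving out each library in turn gave 0 to 1. The 1 came without OMD-/- replicate 2, where 3128 of 17159 genes passed. The log2 fold change of *Hbb-bs* turned sign to 0.16 with the block and to 0.04 with close pairs summed, and ranged from -0.29 to 0.11 over the libraries left out. In none of the 17 alternatives did *Hbb-bs*, *Hbb-bt* or *Alas2* pass here.

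In PRELP-/- replicates 2 and 3 against WT the count moved from 2 to 1 with the replicate block and with 1 fit over all libraries. Those fits passed 3526 of 17120 and 4047 of 16912 genes, against 3807 of 17120 in the main fit. The count was 4 with the Y chromosome covariate, where 7358 of 17120 genes passed. Leaving out WT replicate 1 or 2 gave 1 member, and 3976 of 16836 and 3876 of 16918 genes. Leaving out WT replicate 3 or 4 gave 2, and 2734 of 16832 and 3632 of 16823 genes. Summing close pairs or leaving out a PRELP-/- library left 1 PRELP-/- sample, assumed to vary like WT, so no count is given here. *Hbb-bt* turned to -0.10 with the block and ranged from -0.13 to 0.40 over the libraries left out. *Alas2* kept its sign in 16 of 16 alternatives and passed in 13.

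In PRELP-/- replicates 2 and 3 against OMD-/- the count moved from 0 to 1 with no filter on low counts. There 429 of 28571 genes passed. The count was 3 with limma-voom and with the replicate block, where 9.45% and 16.9% of all genes passed. Leaving out OMD-/- replicate 1 gave 3, and 19.9% of all genes. Leaving out OMD-/- replicate 2 or 3 gave 0, and 1 of 15848 and 1 of 15907 genes. *Hba-a1* turned to 0.40 and *Hba-a2* to -0.26 with the Y chromosome covariate, and *Hba-a2*, then standing for the alpha total, to -0.0618 with copies summed. Fits with PRELP-/- replicate 1 added gave values and no calls, as that library chose the genes. Over the libraries left out *Hba-a1* ranged from -0.50 to 0.49 and *Hba-a2* from -0.20 to 0.55. The causes of these changes were not tested.

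Same-numbered libraries of WT and OMD-/- had correlated deviations of 0.041, -0.0443 and 0.0236, and those of WT and PRELP-/- of -0.0585, 0.137 and -0.0998, with 2 of 3 OMD-/- and 1 of 3 PRELP-/- libraries correlating best with their own number, so the numbers were not taken to pair libraries there. Against protein-coding nuclear genes alone, the share of counts on the members in PRELP-/- replicate 1 was 0.0398%. The tests of PRELP-/- rest on 2 libraries that were nearly alike, which limits what their p-values say about other animals.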
